A study of Sus scrofa with 24 samples.

Results

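Calpain 3 (CAPN3), calpastatin (CAST), the F-box protein FBXO32 and the ankyrin repeat and SOCS box protein ASB11 were followed in pig longissimus dorsi muscle, a long muscle of the back. The genes were taken by their symbol in the array's annotation, which gave 4 genes of the 6765 with a symbol, and 10 probe sets of the 10069 that carry 1 symbol and the 23999 tested: 2 for CAPN3, 5 for CAST, 2 for FBXO32 and 1 for ASB11. The brightest probe set of a gene over the 24 arrays stood for it, and the others are described beside it. All 24 arrays were Affymetrix GeneChip Porcine Genome Arrays, and each carried 1 RNA pool of the Pietrain breed (Pi) or of German Landrace (DL). The 8 groups, of 3 pools each, lettered a to c, were Pi and DL embryos or fetuses taken 35, 63 or 91 days after conception (dpc) and Pi and DL adults. How many animals went into each pool, of which sex, and how old the adults were is unknown here, so p-values measure differences against the spread between pools, which may be technical. No treatment or genotype is named in the labels beside the breed. All samples are labelled as this muscle, and the titles of the 35 dpc pools alone carry a letter K whose meaning is unknown here.

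Muscle proteins are broken down by several enzyme systems. Calpains are calcium-dependent proteases that cut proteins at few sites. The ubiquitous calpains 1 and 2 share a small regulatory subunit and are held in check by calpastatin, whose gene has been studied in pigs for its association with meat tenderness. Calpain 3 is made mainly in skeletal muscle, binds titin in the sarcomere, and its loss causes a limb-girdle muscular dystrophy in humans. The ubiquitin ligases instead tag proteins for the proteasome. FBXO32, also called atrogin-1 or MAFbx, recognises substrates for a ligase built on cullin 1 and is induced in wasting muscle of rodents, where FOXO transcription factors switch it on. ASB11 belongs to a family that recognises substrates for ligases built on elongins and cullin 5, and in zebrafish it acts on the Notch ligand DeltaA in progenitor cells.

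Levels are log2 intensities of a quantile-normalised table, so each one is relative to the other probe sets of its array, and a lower level can mean fewer cells of a type or less RNA per cell, which cannot be told apart in these samples. Levels of different probe sets are not comparable with each other. The background ceiling of an array, the highest of 23 control probe sets with no target added, lay between 2.31 and 2.69. Skeletal muscle was marked by 11 measured fibre genes of the 12 listed, none at background in any group. Their summed level was 16.69 to 16.74 in Pi and 16.78 to 16.88 in DL at 35 dpc, and 18.81 to 18.86 in adult Pi and 18.83 to 18.86 in adult DL. The 35 dpc pools also carried neural and Schwann cell genes (6 measured of 10), summing to 15.06 to 15.31 in Pi and 15.17 to 15.40 in DL, and no more than 6.22 in any later pool. At 63 dpc, SNAP25 and RTN1 were at background in every pool of both breeds. The part of these cells in the changes from 35 to 63 dpc was not tested.

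CAPN3, the protease of the sarcomere, was lowest at 35 dpc and highest in adults. Its brightest probe set read 5.58, 4.69 and 6.13 in the Pi pools at 35 dpc, and 6.50, 6.62 and 6.43 in the DL pools. At 63 dpc it read 9.64, 9.18 and 9.63 in Pi and 9.67, 9.85 and 9.91 in DL, and at 91 dpc 9.83, 9.36 and 9.62 in Pi and 10.64, 10.71 and 9.97 in DL. Adult pools read 12.68, 12.63 and 12.51 in Pi and 13.22, 12.82 and 12.86 in DL. Within each breed the adult pools lay above every fetal pool and the 35 dpc pools below every later one. In the order of the group means, only Pi at 63 dpc, Pi at 91 dpc and DL at 63 dpc overlapped with a neighbour.

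CAST, the calpain inhibitor, moved in a narrower range and had its highest group at 91 dpc. Its brightest probe set read 9.03, 9.18 and 9.25 in Pi and 8.78, 9.06 and 8.71 in DL at 35 dpc, and 9.85, 9.60 and 9.70 in Pi and 9.67, 9.77 and 9.66 in DL at 63 dpc. At 91 dpc it read 10.03, 10.24 and 9.88 in Pi, against 9.43, 9.82 and 9.36 in DL. In adults it read 8.76, 8.82 and 8.92 in Pi, against 9.48, 9.92 and 9.39 in DL. The breeds did not overlap at 91 dpc, where Pi was higher, nor in adults, where Pi was lower. Adult Pi and DL at 35 dpc, the lowest groups by mean, overlapped with each other, while Pi at 91 dpc had the highest mean and shared its range only with the adult DL pools, of which the second read 9.92.

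FBXO32, the substrate receptor known from wasting muscle, showed 3 separate bands of level. Its brightest probe set read 5.60, 6.23 and 6.28 in Pi and 5.76, 5.73 and 5.51 in DL at 35 dpc. At 63 dpc it read 8.10, 8.13 and 7.54 in Pi and 7.91, 7.64 and 8.46 in DL, and at 91 dpc 8.38, 8.27 and 7.77 in Pi and 8.42, 8.49 and 8.40 in DL. Adult pools read 11.98, 12.17 and 12.11 in Pi and 12.33, 12.69 and 12.01 in DL. The 63 and 91 dpc pools overlapped, and the 35 dpc and adult pools stood clear of them on either side.

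ASB11, from the family of SOCS box ligase receptors, was near background at 35 dpc and had the same 3 bands. Its only probe set read 3.0, 3.1 and 2.9 in Pi and 2.79, 2.93 and 4.26 in DL at 35 dpc, above the background ceiling of every array. At 63 dpc it read 8.61, 8.68 and 8.87 in Pi and 8.21, 8.64 and 8.59 in DL, and at 91 dpc 8.35, 8.12 and 8.68 in Pi and 8.98, 8.61 and 8.49 in DL. Adult pools read 11.81, 11.58 and 11.38 in Pi and 12.06, 11.89 and 11.92 in DL. The third DL pool at 35 dpc was the highest of that stage, and it remained far below the pools of 63 dpc.

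**Figure D1:**
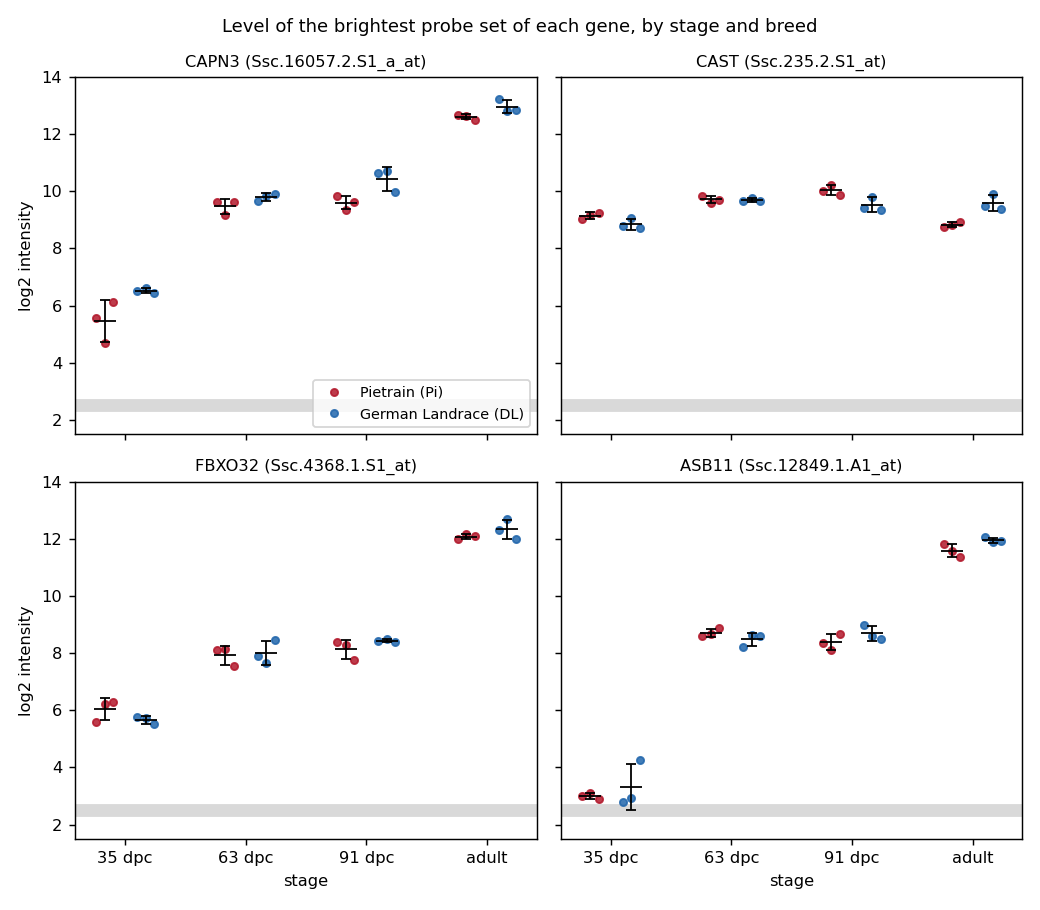
Log2 intensity (vertical axis) of the brightest probe set of each gene at 4 stages (horizontal axis), with Pi in red and DL in blue. Points are pools, black bars the mean ± SD (n = 3) and the grey band the range of background ceilings, 2.31 to 2.69; CAPN3, FBXO32 and ASB11 are highest in adults, whereas adult Pi CAST lies at 8.76 to 8.92.

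The first comparison asked how the genes changed between 35 and 63 dpc, as the mean of the changes in both breeds. All 4 rose, ASB11 43.3-fold, CAPN3 12.6-fold, FBXO32 4.32-fold and CAST 1.63-fold. Of all probe sets 44.2% passed in this step, 22.3% as higher and 22% as lower. On the log2 scale the changes were 5.43 ± 0.19 for ASB11 (SE; limma with Benjamini-Hochberg adjustment, adjusted p = 6.91e-14), 3.65 ± 0.19 for CAPN3 (1.84e-11), 2.11 ± 0.17 for FBXO32 (5.75e-09) and 0.71 ± 0.10 for CAST (1.4e-05). In absolute size, the change of ASB11 was larger than those of 99.4% of probe sets and that of CAPN3 larger than 97.9%. No pool of 63 dpc overlapped with one of 35 dpc in any of the 4 genes, as for 33.4% of all probe sets. Scaling to the spiked hybridisation controls instead shifted the median probe set by -0.81 and made 11.9% of calls higher, against 50.3% as deposited; the CAST change was then -0.11 and did not pass, so its direction held only relative to the other probe sets.

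Between 63 and 91 dpc none of the 4 genes passed, at the adjusted threshold or at an unadjusted p of 0.05 in limma, while 18.3% of all probe sets did, 8.88% as higher and 9.4% as lower. The differences and their 95% intervals were 0.38 (-0.02 to 0.77) for CAPN3, 0.33 (-0.02 to 0.67) for FBXO32, 0.08 (-0.13 to 0.30) for CAST and -0.06 (-0.46 to 0.35) for ASB11. The second CAPN3 probe set behaved differently in this step and is described below.

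Between 91 dpc and the adult stage CAPN3, FBXO32 and ASB11 rose and the brightest CAST probe set fell. FBXO32 was 15.2-fold higher in adults than at 91 dpc, with a log2 change of 3.92 ± 0.17 (limma, adjusted p = 6.53e-13). ASB11 was 9.4-fold higher (3.23 ± 0.19, adjusted p = 8.27e-11) and CAPN3 6.79-fold higher (2.76 ± 0.19, adjusted p = 5.58e-10). In this step 57.4% of all probe sets passed, 30.8% as higher and 26.6% as lower. The change of FBXO32 exceeded 96.9% of probe sets in absolute size, that of ASB11 94.5% and that of CAPN3 91.8%. Adult and 91 dpc pools did not overlap for these 3 genes, as for 34.5% of all probe sets.

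The fall of the brightest CAST probe set averaged -0.58 ± 0.10 (limma, adjusted p = 8.77e-05) and exceeded 44.9% of probe sets in absolute size. The other CAST probe sets did not share it: the second-brightest changed by -0.01 ± 0.15 and the third rose by 1.63 ± 0.33. The breeds differed in the change of the brightest one. In Pi the adult level was 2.32-fold lower than at 91 dpc (log2 change -1.22, 95% interval -1.52 to -0.91), whereas the DL change was 0.06 (-0.25 to 0.36). Adults also differed from fetuses in the GAPDH gap, the level at the 3' end of this control transcript minus that at its 5' end, a measure of how complete the labelled RNA was. It averaged -0.59 in adult Pi and -0.42 in adult DL, against 1.03 in Pi and 0.56 in DL at 91 dpc. The actin gap, measured alike on the actin control, did not move that way. It was 2.41 to 2.59 in adult Pi, against 1.68 to 2.20 in Pi at 91 dpc. In DL it was 2.28 to 2.35 in adults, against 1.41 to 2.99 at 91 dpc. With the GAPDH gap as a covariate the CAST change was -0.72 and did not pass (limma, adjusted p = 0.0935), while the other 3 genes still passed. In that fit 22.0% of all probe sets passed in this step, against 57.4% without the covariate. Markers moved in the same step. Of 11 fibre markers 7 rose and 2 fell (median 0.26), of 4 adipocyte markers 2 rose and 1 fell (0.70), and of 5 immune markers 3 rose and 1 fell (0.61). Of 8 endothelial markers 1 rose and 5 fell (-1.60), and 6 of 7 fibroblast and matrix markers (-2.54) and 3 of 5 erythroid markers (-1.83) fell. Their part in the changes of the 4 genes was not tested.

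**Figure D2:**
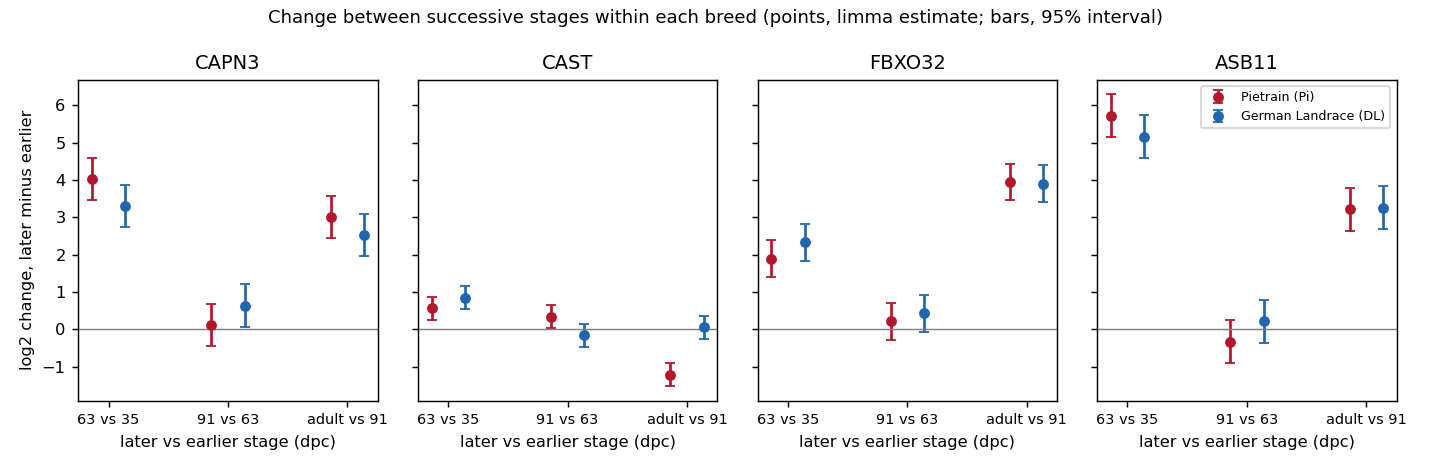
Log2 change of each gene between successive stages (vertical axis, later minus earlier) in Pi (red) and DL (blue), as limma estimates with 95% intervals. The CAST change from 91 dpc to adult is -1.22 in Pi and 0.06 in DL, while FBXO32 changes by 3.94 in Pi and 3.90 in DL.

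Whether the breeds changed by different amounts was tested as the interaction of breed and step. CAST in the last step was the only one of the 4 genes to pass in any of the 3 steps. Its change in Pi was lower than that in DL by -1.27 ± 0.20 on the log2 scale (limma, adjusted p = 0.00305), in a comparison where 2.66% of all probe sets passed, 1.19% as higher and 1.47% as lower. Fitted to the 4 groups compared alone, the difference was again -1.27 and did not pass (adjusted p = 0.0848), in a fit where 0.333% of all probe sets passed. The intervals for the other genes in that step were -0.32 to 1.28 for CAPN3, -0.66 to 0.73 for FBXO32 and -0.87 to 0.76 for ASB11. In the step from 35 to 63 dpc no gene of the 4 passed, and none had an unadjusted p under 0.05, against 3.3% of probe sets that passed, 1.98% as higher and 1.32% as lower. In the step from 63 to 91 dpc no gene passed and 1, CAST, had an unadjusted p under 0.05 (difference 0.50, interval 0.07 to 0.93), against 0.0917% of probe sets that passed, 0.0333% as higher and 0.0583% as lower.

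The breeds were also compared at each stage. CAPN3 was lower in Pi than in DL at 35 dpc, with a mean of 5.47 ± 0.73 in Pi and 6.52 ± 0.09 in DL (SD, n = 3 each). The difference of -1.05 ± 0.27 on the log2 scale, 2.07-fold lower, passed in limma (adjusted p = 0.0329). At this stage 4.03% of all probe sets passed, 1.61% as higher and 2.41% as lower. Fitted to the 35 dpc arrays alone, the CAPN3 difference was again -1.05 and did not pass (limma, adjusted p = 0.205). The call rested on few pools: it was lost when any pool other than the third Pi pool was left out, with differences from -1.11 to -0.66 in those cases. The smallest difference was found without the second Pi pool, the lowest at 4.69. Fibre markers and the GAPDH gap moved with it. Of the 11 fibre markers 6 were lower in Pi at 35 dpc and none higher. The GAPDH gap was 1.08 to 1.21 in Pi, against 0.52 to 0.80 in DL. The actin gap overlapped between the breeds, at 2.38 to 2.68 in Pi and 2.12 to 2.62 in DL. With the GAPDH gap as a covariate the CAPN3 difference was -0.73 and did not pass (limma, adjusted p = 0.304). The part of fibre content in it was not tested.

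At the other stages CAPN3 did not pass between the breeds, and the differences were smaller. Every Pi pool lay below every DL pool of its stage at 4 of 4 stages, which held for 0.0958% of all probe sets. The means were 9.48 ± 0.26 in Pi and 9.81 ± 0.13 in DL at 63 dpc, 9.60 ± 0.23 in Pi and 10.44 ± 0.41 in DL at 91 dpc, and 12.61 ± 0.09 in Pi and 12.97 ± 0.22 in DL in adults (SD, n = 3 each). The differences were -0.32 (interval -0.89 to 0.24), -0.84 (-1.40 to -0.27, adjusted p = 0.113 in limma) and -0.36 (-0.92 to 0.21) at 63 dpc, 91 dpc and in adults. Averaged over the 4 stages CAPN3 was 1.56-fold lower in Pi (-0.64 ± 0.13, adjusted p = 0.00809 in limma), where 6.29% of probe sets passed, 3.05% as higher and 3.24% as lower. This average kept its call when any 1 pool was left out, with values from -0.73 to -0.55. It did not pass with the GAPDH gap as a covariate (-0.50, limma adjusted p = 0.0965), where 2.59% of all probe sets passed. Nor did it pass in the second CAPN3 probe set (0.07, interval -0.17 to 0.32).

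The brightest CAST probe set was lower in adult Pi than in adult DL, 1.70-fold. Its means were 8.83 ± 0.08 in Pi and 9.59 ± 0.28 in DL (SD, n = 3 each). The difference was -0.76 ± 0.14 (limma, adjusted p = 0.004), where 6.33% of probe sets passed, 2.89% as higher and 3.44% as lower. It kept its call when any 1 of the 6 adult pools was left out (-0.86 to -0.60). The second-brightest CAST probe set gave -0.05 (interval -0.49 to 0.39) and the third 0.72 (-0.25 to 1.69), neither passing. In adult Pi 1 of 11 fibre markers was lower, and 1 of 5 immune, 1 of 8 endothelial and 1 of 5 erythroid markers were higher, with no call among the neural, fibroblast and adipocyte lists. Their part was not tested. The CAST call was lost when arrays were weighted by their spread (-0.78, limma adjusted p = 0.146). Adult arrays had weights of 0.23 to 0.58, and the others 0.54 to 2.74. The call was also lost when only the adult arrays were fitted (-0.76, limma adjusted p = 0.249), where 0.0875% of all probe sets passed. At 91 dpc CAST was higher in Pi by 0.51 ± 0.14 without passing (limma, adjusted p = 0.0685), although the breeds did not overlap; with the pool letter as a replicate block it passed (0.51, adjusted p = 0.0432). At 91 dpc 2.72% of all probe sets passed, 1.35% as higher and 1.38% as lower, and none of the 4 genes, of which 2, CAPN3 and CAST, had an unadjusted p under 0.05.

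FBXO32 and ASB11 passed in no breed comparison. For FBXO32 the differences between Pi and DL were 0.37 (interval -0.12 to 0.86) at 35 dpc, -0.08 (-0.57 to 0.41) at 63 dpc, -0.30 (-0.79 to 0.19) at 91 dpc and -0.26 (-0.75 to 0.23) in adults. For ASB11 they were -0.32 (-0.89 to 0.25), 0.24 (-0.33 to 0.81), -0.31 (-0.89 to 0.26) and -0.37 (-0.94 to 0.21) at the same stages. The FBXO32 interval reaches -0.76, the adult CAST difference, at 91 dpc but not at 35 dpc, at 63 dpc or in adults. The ASB11 interval reaches it at 35 dpc, at 91 dpc and in adults but not at 63 dpc. At 63 dpc none of the 4 genes passed or had an unadjusted p under 0.05 in limma, and 1.37% of probe sets passed, 0.671% as higher and 0.7% as lower. The pools of the breeds did not overlap for CAPN3 alone of the 4 genes at 35 dpc (30.1% of all probe sets) and 63 dpc (21.6%), for CAPN3, CAST and FBXO32 at 91 dpc (19.3%) and for CAPN3, CAST and ASB11 in adults (17.4%).

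**Figure D3:**
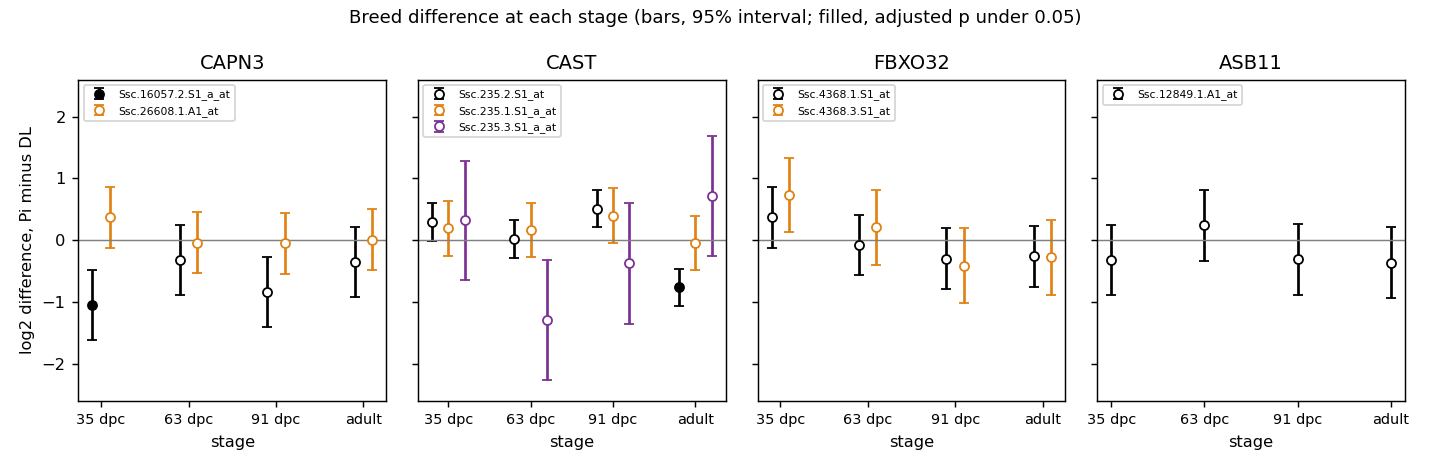
Difference between Pi and DL (vertical axis, log2, Pi minus DL) at each stage for the 8 probe sets other than the 2 dimmest of CAST, as limma estimates with 95% intervals; filled points passed. The filled points are CAPN3 at 35 dpc (-1.05) and CAST in adults (-0.76), each in the brightest probe set of its gene.

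The probe sets of a gene did not always move together, which was tested as the stage change of the within-array difference between a second probe set and the brightest one. The stage labels of the arrays were permuted within each breed, an exact two-sided test of 400 arrangements whose smallest p is 0.005, adjusted over 12 tests. For CAPN3 the second probe set read 3.33, 2.18 and 2.65 in Pi and 2.50, 2.39 and 2.17 in DL at 35 dpc, where 1 pool of each breed lay at background. At 63 dpc it read 8.56 to 8.90 in Pi and 8.41 to 9.09 in DL, at 91 dpc 9.80 to 10.09 in Pi and 9.83 to 10.10 in DL, and in adults 10.41 to 10.51 in Pi and 10.24 to 10.83 in DL.

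Both CAPN3 probe sets were thus lowest at 35 dpc and highest in adults, with different timing. From 35 to 63 dpc the second one rose at least 71.5-fold, with its 2 pools at background set to the ceiling of their arrays, a log2 rise of at least 6.16 (fitted 6.24 ± 0.16). It rose by 1.16 ± 0.16 from 63 to 91 dpc (limma, adjusted p = 5.08e-05) and by 0.51 ± 0.16 to the adult stage (limma, adjusted p = 0.0136). Relative to the brightest probe set it gained 2.58 in the first step, with the same limit at 35 dpc, and 0.78 in the second, and its change in the last was lower by -2.26; the exact permutation tests gave adjusted p of 0.015, 0.024 and 0.015. Its breed differences were small at every stage, from -0.05 to 0.37, and none passed. At 35 dpc, the stage of the CAPN3 breed call, this probe set lay at or next to background and could not show a lower level in Pi. Across the 24 arrays the 2 probe sets had a Pearson correlation of 0.91, given as a description of arrays that share their stages.

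For CAST, 3 of 5 probe sets were above background on all arrays. The dimmest was at background on all 24, and the next was above it on 9, reaching 5.40 in the third adult Pi pool and 4.80 in the third adult DL pool. The second-brightest rose by 0.98 ± 0.15 from 35 to 63 dpc (limma, adjusted p = 2.08e-05), and in adults read 8.11, 7.55 and 8.40 in Pi, against 7.97, 8.06 and 8.19 in DL. The breeds overlapped there, and its change from 91 dpc was -0.01 ± 0.15.

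The third CAST probe set rose in the step in which the brightest one fell. It read 4.11, 5.54 and 5.41 in Pi and 5.33, 5.83 and 5.02 in DL at 91 dpc, and 7.08, 6.79 and 7.71 in Pi and 6.45, 6.39 and 6.59 in DL in adults. All adult pools lay above all pools of 91 dpc. The rise was 1.63 ± 0.33 (limma, adjusted p = 0.000316), and relative to the brightest probe set it was 2.21 (exact permutation, adjusted p = 0.015). In adults it was higher in Pi by 0.72 (interval -0.25 to 1.69) without passing, with no overlap between the breeds. The within-array difference between the third and the brightest probe set averaged -1.64 in adult Pi and -3.12 in adult DL, a breed difference of 1.48 (exact permutation of 3 against 3 pools, p = 0.1, the smallest this design allows). Which CAST transcripts each probe set detects was not tested.

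For FBXO32 both probe sets rose in the first and last step and passed in neither direction in between, by different amounts. The second one rose by 2.53 ± 0.20 from 35 to 63 dpc (limma, adjusted p = 8.11e-09) and by 4.69 ± 0.20 from 91 dpc to adults (limma, adjusted p = 9.35e-13). Between 63 and 91 dpc it changed by -0.29 ± 0.20. Its changes differed from those of the brightest probe set by 0.41, -0.62 and 0.76 in the 3 steps (exact permutation, adjusted p = 0.03, 0.0343 and 0.015).

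**Figure D4:**
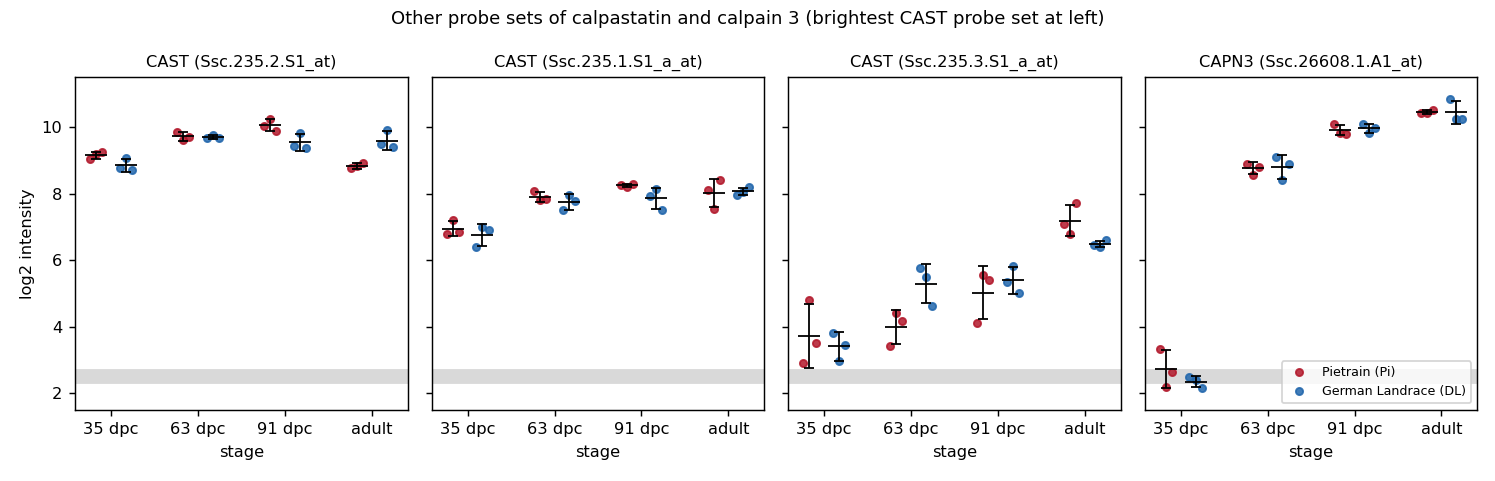
Log2 intensity (vertical axis) by stage for the 3 CAST probe sets above background on all arrays and for the second CAPN3 probe set, Pi in red and DL in blue; points are pools, bars mean ± SD (n = 3), grey the background ceilings. From 91 dpc to adult the brightest CAST probe set falls in Pi, where adults read 8.76 to 8.92, while the third one rises to 6.79 to 7.71 in adult Pi and 6.39 to 6.59 in adult DL.

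Related genes were read from lists written from textbook knowledge. Of the other calpain genes 5 of 14 were measured. Between 35 and 63 dpc 4 of them rose and 1 fell, with a median change of 0.68, against 0.03 over the 6765 genes with a symbol, of which 30.5% rose. CAPN1, the catalytic subunit of calpain 1, rose by 1.60 ± 0.08 (limma, adjusted p = 1.57e-11), CAPN10 by 0.97 ± 0.24 and CAPNS1, the shared small subunit, by 0.68 ± 0.06. CAPN1 also rose in the later steps, by 0.31 ± 0.08 and 0.48 ± 0.08, and CAPNS1 fell by 0.16 in the last.

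CAPN1 and CAPNS1 resembled CAPN3 in being lower in Pi at 35 dpc. CAPN1 averaged 7.19 ± 0.04 in Pi and 7.92 ± 0.07 in DL (SD, n = 3 each), a difference of -0.73 ± 0.12 (limma, adjusted p = 0.00114). CAPNS1 averaged 10.27 ± 0.06 in Pi and 10.91 ± 0.09 in DL, a difference of -0.64 ± 0.09 (limma, adjusted p = 0.000305). At 63 dpc CAPN1 was instead higher in Pi, by 0.54 ± 0.12 (limma, adjusted p = 0.0268), and both genes rose more in Pi between 35 and 63 dpc, CAPN1 by 1.27 ± 0.16 (limma, adjusted p = 0.000457) and CAPNS1 by 0.69 ± 0.12 (0.00424). CAPN2, the catalytic subunit of calpain 2, was higher in Pi at 91 dpc (0.39 ± 0.10, limma adjusted p = 0.0398) and in adults (0.36 ± 0.10, 0.0312).

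Among other muscle and atrophy-related ubiquitin ligases 7 of 18 were measured. From 91 dpc to adults 3 rose, 2 fell and 2 did not pass, with a median of 0.03, against 0.07 over all genes with a symbol, of which 35.4% rose and 31.5% fell. TRAF6, a ligase of signalling pathways, rose by 2.59 ± 0.39 (limma, adjusted p = 1.51e-05) and MUL1, a mitochondrial ligase, by 1.16 ± 0.21 (0.000121). TRIM55, a sarcomere-bound ligase also called MURF2, fell by 1.35, to a mean of 10.18 ± 0.13 in adult Pi and 9.96 ± 0.23 in adult DL (SD, n = 3 each). Between 35 and 63 dpc 3 rose and 2 fell (of all genes 30.5% and 24.1%), led by MUL1 (0.97 ± 0.21), STUB1, a chaperone-linked ligase (0.87 ± 0.08), and FBXO21 (-0.81 ± 0.15). None of the 7 passed in a breed comparison, where between 1.37% and 6.33% of all probe sets did.

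Of the ASB family 5 of 17 other members were measured. Their median change was 0.42 between 35 and 63 dpc and 0.68 from 91 dpc to adults, against 5.43 and 3.23 for ASB11. Between 35 and 63 dpc 2 rose, where 30.5% of all genes did, ASB13 by 0.58 ± 0.14 and ASB3 by 0.53 ± 0.17. From 91 dpc to adults 2 rose and 1 fell (of all genes 35.4% and 31.5%): ASB8 rose by 1.88 ± 0.10 (limma, adjusted p = 2.21e-11) and ASB13 by 1.31 ± 0.14, while ASB6, at background in 1 adult pool of each breed, fell by 1.67. Between 63 and 91 dpc (12.9% and 13.7%) ASB8 rose by 0.59 ± 0.10, and ASB3 (-0.90 ± 0.17) and ASB13 (-0.44 ± 0.14) fell. At 91 dpc ASB3 was higher in Pi by 1.25 ± 0.24 (limma, adjusted p = 0.00891) and ASB13 lower by 0.75, where the difference was -0.75 ± 0.19 (0.0449).

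Of the shared machinery of cullin ligases 7 of 16 genes were measured. From 91 dpc to adults 3 rose and 1 fell, with a median of 0.18, near the shares (35.4% and 31.5%) and the median (0.07) of all genes. CUL4A, a cullin scaffold, rose by 2.33 ± 0.15 (limma, adjusted p = 1.73e-10), COPS5, the subunit that removes NEDD8 from cullins, by 0.81 ± 0.08, and ELOB, an elongin that ASB proteins bind, fell by 0.47. CUL1, the scaffold used by FBXO32, rose by 0.31 in this step. Between 35 and 63 dpc 1 rose and 3 fell (of all genes 30.5% and 24.1%), among them CUL2 (-0.54 ± 0.08) and COPS5 (-0.41 ± 0.08), and NEDD8, the modifier of cullins, rose by 0.31 ± 0.07. Averaged over the stages COPS5 was lower in Pi by -0.24 ± 0.06 (limma, adjusted p = 0.0157).

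Regulators that act upstream of FBXO32 in mammals were better covered, with 13 of 16 measured. From 91 dpc to adults 8 rose, 4 fell and 1 did not pass, and the median was 1.98, where 35.4% of all genes rose and 31.5% fell, with a median of 0.07. CEBPB, a transcription factor, rose by 4.47 ± 0.11 (limma, adjusted p = 2.5e-16), FOXO3, the forkhead factor best known for inducing FBXO32, by 4.28 ± 0.39 (3e-08), and SMAD3, which carries myostatin signals, by 3.62 ± 0.40 (3.12e-07). MSTN, myostatin itself, went the other way. Its mean was 7.74 in Pi and 7.95 in DL at 91 dpc, against 4.36 in adult Pi and 5.63 in adult DL. The adult means of AKT1, IGF1 and IGF1R were also below those of 91 dpc in both breeds. AKT2, of the same list, was higher in adults. Its means were 7.17 in Pi and 7.35 in DL at 91 dpc, against 10 in adult Pi and 10.24 in adult DL. FOXO3 was near background before: 1 pool of each breed lay at it at 91 dpc, with means of 2.88 ± 0.69 in Pi and 2.67 ± 0.34 in DL, against adult means of 7.19 ± 0.26 in Pi and 6.93 ± 0.96 in DL (SD, n = 3 each). Between 35 and 63 dpc 6 rose and 2 fell (of all genes 30.5% and 24.1%), among them CEBPB (2.38 ± 0.11), MSTN, myostatin (-1.72 ± 0.36), and the activin receptor ACVR2B (limma, adjusted p = 0.000779). ACVR2B was at background in all 6 pools of 35 dpc (mean 2.20) and in 1 Pi pool of 63 dpc (mean of both breeds 3.93). With the 35 dpc pools set to the background ceiling of their arrays, it was 2.91-fold higher at 63 dpc. Because of the Pi pool at background, this ratio is not a strict lower bound. Between 63 and 91 dpc 4 rose and none fell (of all genes 12.9% and 13.7%), led by PPARGC1A, a coactivator of mitochondrial genes (2.45 ± 0.35), and KLF15, a glucocorticoid-induced factor (1.33 ± 0.35).

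Of these 13 genes 1 was lower in Pi at 35 dpc, 1 at 91 dpc and 1 in adults, and none was higher. Of all genes with a symbol 3.58%, 2.28% and 3.92% were lower in Pi at these stages. AKT1, a kinase of the insulin pathway that restrains FOXO factors, was lower in Pi at 35 dpc by -1.02 ± 0.21 (limma, adjusted p = 0.008). NR3C1, the glucocorticoid receptor, was lower in Pi at 91 dpc (-0.64 ± 0.16, limma adjusted p = 0.0459) and in adults (-0.74 ± 0.16, 0.0113).

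Of listed substrates and binding partners 9 of 16 were measured, and between 35 and 63 dpc 7 rose and 2 fell, with a median of 1.64, where 30.5% of all genes rose and 24.1% fell, with a median of 0.03. MYOZ1, a Z-disc protein, rose by 5.12 ± 0.07, TNNT3, fast troponin T, by 3.27 ± 0.07, and DES, the filament protein desmin, by 3.08 ± 0.08. From 91 dpc to adults 4 rose and 3 fell (of all genes 35.4% and 31.5%), and MYOD1, a myogenic factor and substrate of FBXO32 in mouse cells, fell by 2.55, and VIM, the filament protein vimentin, changed by -2.08 ± 0.07. At 35 dpc TNNT3 (-0.76 ± 0.10, limma adjusted p = 0.000268), TNNI2, fast troponin I (-0.70 ± 0.08, 4.75e-05), and DES (-0.60 ± 0.11, 0.00468) were lower in Pi, as CAPN3 was. In adults DES (-0.68 ± 0.11, limma adjusted p = 0.00128) and ACTN2, an alpha-actinin of the Z-disc (-0.75 ± 0.12, 0.000951), were lower in Pi, as the brightest CAST probe set was. The change from 91 dpc to adults was also lower in Pi for both, by -0.79 ± 0.16 for DES (limma, adjusted p = 0.0129) and -0.68 ± 0.17 for ACTN2 (0.0367).

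**Figure D5:**
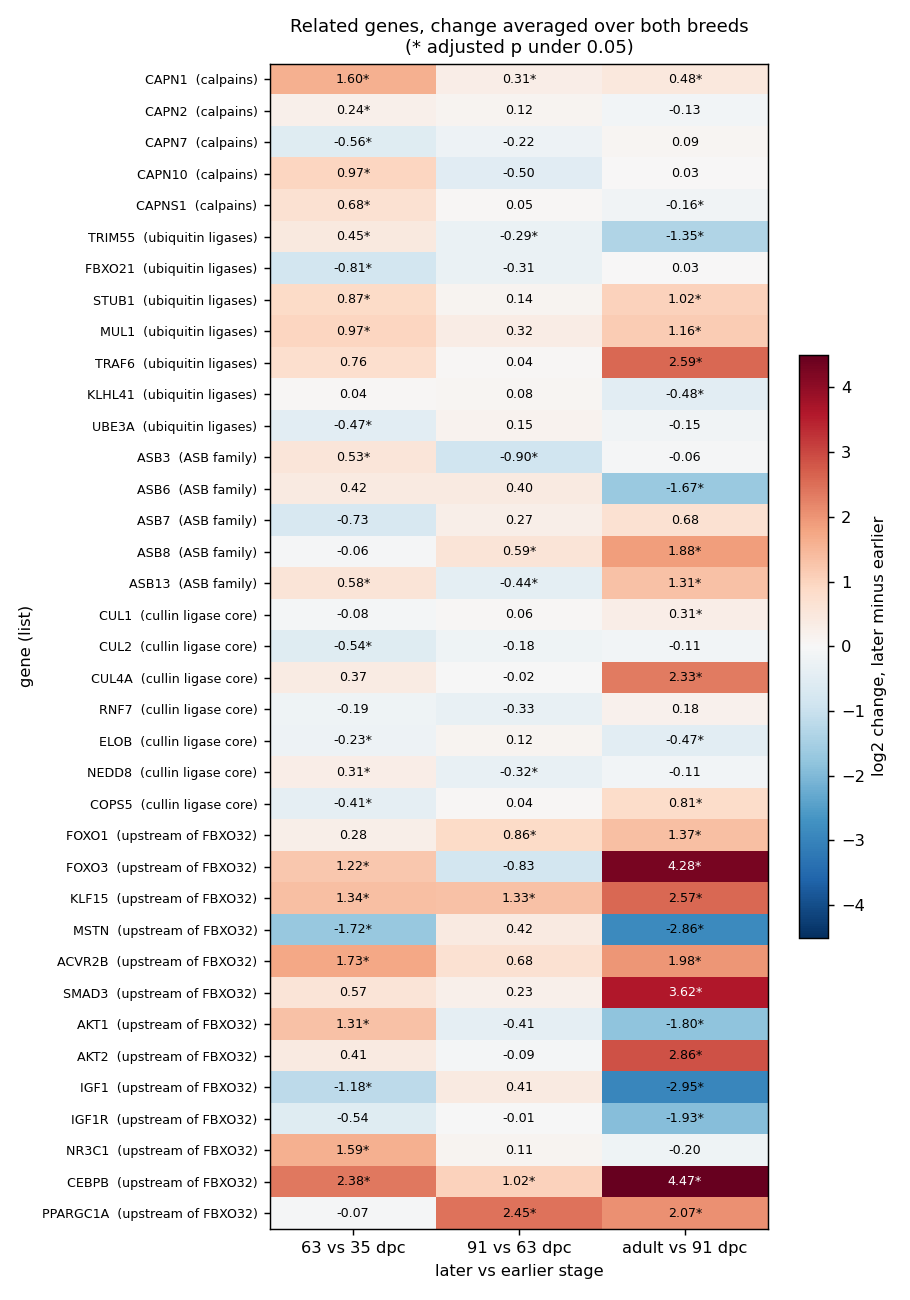
Log2 change between successive stages, later minus earlier (columns), for measured genes of 5 lists (rows), averaged over both breeds; colour and number give the change and asterisks mark genes that passed. CEBPB reaches 4.47 from 91 dpc to adult. The values of IGF1 in that column, at background in 5 of 6 adult pools, and of ACVR2B and FOXO3 in the first column are measured against background. FOXO3 was at background in 3 Pi pools and 2 DL pools of 35 dpc.

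The genes with the most similar pattern over the 24 arrays were ranked by Pearson correlation, a description of arrays that share their stages. For CAPN3 they were PGAM2 (0.989), PYGM (0.987), POPDC3 (0.985), CRYAB (0.982) and CDIP1 (0.982). For ASB11 they were AMPD1 (0.990), MACROD1 (0.989), STBD1 (0.987), PGAM2 (0.987) and FHL1 (0.986), and for FBXO32 PYGM, CEBPB and ADSSL1 (0.985 each), BAG3 (0.984) and COPS7A (0.981). Other measures of likeness named largely other genes: by Spearman correlation 0 of the 5 remained for CAPN3, FBXO32 and ASB11 and 3 for CAST, and over the 8 group means 2 remained for CAPN3, 3 for FBXO32, 3 for ASB11 and 0 for CAST. High correlations were common, since 488 of 6764 other genes exceeded 0.9 with CAPN3, 485 with FBXO32 and 443 with ASB11. No gene exceeded 0.9 with the brightest CAST probe set, for which FEZ2 (0.849), RAB28 (0.822), TPPP3 (0.806), INPP5A (0.797) and SMPX (0.795) ranked first. Among the brightest probe sets of the 4 genes CAPN3 and ASB11 correlated at 0.98, CAPN3 and FBXO32 at 0.93, FBXO32 and ASB11 at 0.91, and CAST with the others at 0.05 to 0.29. The third CAST probe set correlated with the brightest one at 0.02, so these values hold for the brightest CAST probe set only.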

How the data were processed

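The values are log2 intensities per probe set and array as deposited by the authors. GCOS 1.1.1 is named per the submitters' processing notes; no source used here gives the summarising method or the log base, and base 2 was taken from the range of 1.6 to 16.1. Sorted columns were identical, so the deposited log2 table was quantile-normalised. Per the labels' protocols, cRNA came from 500 ng of total RNA.

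Of 24123 probe sets 124 controls were left out. One limma 3.58.1 model (R 4.3.3) with 8 group means was fitted to 24 arrays and 23999 probe sets (16 residual and 1.31 prior degrees of freedom), two-sided, with Benjamini-Hochberg adjustment over all of them and a threshold of 0.05. The fit was tested on simulated data.

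The 4 genes and all lists were chosen with earlier results of these data known. Named list genes are the 3 largest changes that passed in a step, or up to 5 in a breed or interaction comparison. CUL1 and IGF1 were named in addition after their values were seen, as were the adult levels of MSTN, AKT1, AKT2 and IGF1R. Pool letters did not pair pools (median correlation of deviations -0.01 for the same letter and 0 for different letters). Permutations and figures used Python 3.11.15 and matplotlib 3.10.9. Alternatives are given in the closing section. The number of arrays limits the precision. Sequences of the genes were not used here.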

Additional observations from a re-analysis of the deposited data

Results flagged for a closer look

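The change of CAST from 91 dpc to adults differed between the breeds by -1.27 on the log2 scale (brightest probe set, limma, adjusted p = 0.00305), as a test of the difference itself. Every adult Pi pool (8.76 to 8.92) lay below every Pi pool of 91 dpc (9.88 to 10.24), whereas adult DL pools (9.39 to 9.92) overlapped with those of 91 dpc (9.36 to 9.82). The difference ranged from -1.42 to -1.11 when any 1 of the 12 pools was left out and passed each time. With only the 4 groups compared in the fit it was again -1.27 and did not pass (adjusted p = 0.0848). The second-brightest CAST probe set gave -0.45 and the third 1.09, neither passing.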

How the results depend on the processing

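Of 905 recomputed differences of the 4 genes, 815 kept their direction and side of the threshold, 25 lost the call, 10 gained one and 55 changed sign, 45 of them passing in neither setting. Trended and robust moderation, and leaving out dim probe sets, changed no call of the 4 genes. The cause was not tested for any change below.

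Array weights left 0 called genes in adults, and gave CAST -0.01 at 63 dpc and -0.01 over all stages, and breed-by-step values in the adult step of -0.01 for FBXO32 and 0.02 for ASB11. Fitting only the groups compared, which leaves fewer arrays to estimate the spread, left 0 at 35 dpc (CAPN3 again -1.05, adjusted p = 0.205), 0 in adults (CAST -0.76, 0.249) and 0 in the adult breed-by-step test (CAST -1.27, 0.0848); 4.2%, 0.0875% and 0.333% of all probe sets passed there, against 4.03%, 6.33% and 2.66%.

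Scaling to hybridisation controls called 2 genes at 35 dpc (CAST 0.81, FBXO32 0.88), 1 at 91 dpc (CAPN3 -1.16) and 2 in breed by step from 35 to 63 dpc (CAST -0.91, FBXO32 -1.08). Of all probe sets 35.1%, 10.6% and 29.4% passed in these comparisons under this scaling, against 4.03%, 2.72% and 3.3% as deposited. The scaling turned CAST to -0.11 and -0.06 in the first and second step, -0.10 at 63 dpc and -0.02 over all stages, and ASB11 to 0.19 at 35 dpc and to -0.07 and 0.05 in breed by step, first and adult step. It moved the median probe set by -0.15 and -0.14 in the second and adult step and by 0.51, -0.11, -0.32 and -0.22 between breeds at 35, 63 and 91 dpc and in adults. The share of calls that were higher was then 31% (as deposited 48.6%) and 39.9% (53.7%) in these steps, 98.1% (40.1%), 22.2% (48.9%), 6.12% (49.5%) and 19.6% (45.7%) between breeds at those stages, and 2.09% (60%), 16.7% (36.4%) and 59.5% (44.7%) in breed by step.

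The pool letter as a replicate block called 1 gene at 91 dpc, CAST, 0.51 with and without it, and changed no other call; the letters did not pair the pools. The GAPDH gap as a covariate left 0 genes at 35 dpc and 0 over all stages, with ASB11 at 0.01 at 35 dpc. Over all stages 2.59% of all probe sets passed with this covariate, against 6.29% without it.

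With second-brightest probe sets, 1 gene passed between 63 and 91 dpc, and 0 at 35 dpc, in adults (0), over all stages (0) and in the adult breed-by-step test (0). Signs turned for FBXO32 (-0.29 in the second step, 0.21 at 63 dpc, 0.06 over all stages) and CAPN3 (0.37 at 35 dpc, 0.01 in adults, 0.07 over all stages, -0.41 in the first breed-by-step test). The mean of all probe sets gave the same counts, 1, 0, 0, 0 and 0, with CAST at 0.34 in the adult step and -0.16 at 63 dpc, and FBXO32 at 0.06 at 63 dpc.

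The third CAST probe set gave 1.63 in the adult step, -1.29, -0.37 and 0.72 at 63 dpc, 91 dpc and in adults, -0.16 over all stages and 1.09 in the adult breed-by-step test. The fourth gave 0.69 in the adult step, -0.02 at 91 dpc, 0.08 in adults and 0.19, -0.26 and 0.09 in breed by step. The fifth, at background, gave -0.04 in the second step, -0.01 at 35 dpc, and 0.07 and -0.02 in the first and second breed-by-step tests.

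Leaving out 1 pool gave 0 to 1 called genes at 35 dpc and 0 to 1 at 91 dpc, where CAST passed without the second DL pool (0.65) and CAPN3 without the third (-1.08). Signs turned within -0.13 to 0.01 for ASB11 in the second step, -0.59 to 0.15 at 35 dpc and -0.20 to 0.09 in the adult breed-by-step test, within -0.05 to 0.08 for CAST at 63 dpc and -0.01 to 0.06 over all stages, and within -0.26 to 0.15 for FBXO32 at 63 dpc and -0.15 to 0.21 in the adult breed-by-step test. Between 21.3% and 32.2% of probe sets lay at background on an array, which limits ASB11 and the second CAPN3 probe set at 35 dpc.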
